A study of Homo sapiens with 6 samples.

Results

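The miRNAs described here are those whose number is 1000 or higher in the miRBase numbering, a group that entered the catalogue late, mostly from deep sequencing. They were taken from the known names of the deposited table by the number after miR-, leaving out miR-1185, miR-1193 and miR-1197, which belong to the large imprinted cluster on chromosome 14, and each distinct mature sequence was counted once. The rule gave 49 of the 463 sequences listed, or 10.6%, against 296 other known miRNAs and 118 sequences that the authors named themselves by a chromosome and a number (author-named sequences). No measured value entered the choice.

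The sequencing asked which miRNAs of TGF-β1-activated LX-2 cells differ when the cells share medium with HUC-MSCs, mesenchymal stem cells from human umbilical cord. LX-2 is an immortalized line of human hepatic stellate cells, the liver cells that lay down scar matrix, and all 6 libraries come from this single line. Every culture had received TGF-β1 at 10 ng/mL, for 24 h according to the deposited design text (the methods give a longer time), and was then kept for 48 h either with HUC-MSCs above a porous membrane (co-culture group, 3 libraries) or under an empty insert (single culture group, 3 libraries). LX-2 cells from the lower chamber were collected, and the miRNA reads (tags) were counted. The sources do not say whether the 3 libraries of a group came from separate cultures, so p-values measure only the spread between these libraries. In pooled cells, fewer cells of a kind and less of a miRNA per cell cannot be told apart.

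A miRNA is cut from a hairpin in a longer transcript, first in the nucleus by the Microprocessor and then in the cytoplasm by Dicer, and 1 arm is loaded into an Argonaute protein. The loaded strand finds its target mRNAs mainly through bases 2 to 8, the seed, and miRNAs with the same seed form a family. Low-numbered miRNAs include most of the conserved and abundant families, whereas many high-numbered entries are specific to primates, come from introns, or lie in sequence shared with other structured RNAs such as snRNA and tRNA.

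The mature sequences of the miRNAs with most tags are given because the values below turn on them. Of the 49, 43 were found by name in RefSeq (GRCh38.p14), and all 43 were identical to the deposited sequence. The seed is in capitals, and no seed was shared between any of the 49.
miR-1180-3p: uUUCCGGCucgcgugggugugu
miR-7974: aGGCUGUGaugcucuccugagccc
miR-3613-5p: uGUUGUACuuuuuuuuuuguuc
miR-1246: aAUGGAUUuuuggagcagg
miR-2682-5p: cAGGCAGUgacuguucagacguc
miR-1278: uAGUACUGugcauaucaucuau
miR-1307-3p: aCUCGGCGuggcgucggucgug
miR-4746-5p: cCGGUCCCaggagaaccugcaga
miR-1287-5p: uGCUGGAUcagugguucgaguc
miR-4791: uGGAUAUGaugacugaaa
miR-1296-5p, also among the 10 with most tags, and miR-4286, miR-3150a-5p, miR-4508, miR-9903 and miR-6842-3p are named only.

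The libraries held 43956 to 209043 tags in the single culture group and 325037 to 604418 in the co-culture group. miR-21-5p, a miRNA widely reported in fibrosis and present as 2 forms, took 37.1% to 56.4% of the tags in single culture and 75% to 81.2% in co-culture. Sequences of 17 to 20 nt took 17.3% to 40.8% of the remaining tags in single culture and 11.3% to 15.2% in co-culture. Single culture libraries 2 and 3 stood apart from library 1 in both depth and short sequences. A blank in the table means fewer than 2 tags, and 2 tags stood for 6.58, 31 and 29.6 CPM (tags scaled to an equal library total) in single culture libraries 1 to 3 and for 7.75, 5.32 and 7.09 CPM in co-culture libraries 1 to 3, after TMM scaling, which sets the bulk of miRNAs level between libraries. Marker miRNAs of hepatocytes, epithelium and blood were listed in 0 of 12 cases, whereas 4 of the 5 mesenchymal markers were listed, with miR-143-3p at 156 to 310 tags in each library and miR-214-3p not listed. The other listed mesenchymal markers were near the floor. miR-199a-5p had 3 to 8 tags in each library, and miR-145-5p and miR-199a-3p had at most 6 and 4 tags and were blank in some libraries. Both endothelial markers were listed, miR-126-3p with 8 to 68 tags in each library. miR-126-5p was blank in all of single culture and had 4, 2 and 7 tags in co-culture libraries 1 to 3. Libraries carry the number of their table column, because the table does not tie a column to a sample.

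The high-numbered miRNAs were rare in LX-2 cells. Together they held 926 of 1651946 tags, or 0.0561%. miR-1180-3p, miR-7974 and miR-3613-5p held 429 of the 926 tags (46.3%), and the 10 with most tags held 732 (79.0%). The median was 5 tags per miRNA over all 6 libraries, against 34.5 for other known miRNAs and 13 for author-named sequences. No high-numbered miRNA exceeded 1000 tags, whereas 33 of the 296 other known miRNAs did (11.1%). At the other end, 35 of the 49 had 10 tags or fewer in all, and 16 had 2.

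**Figure D1:**
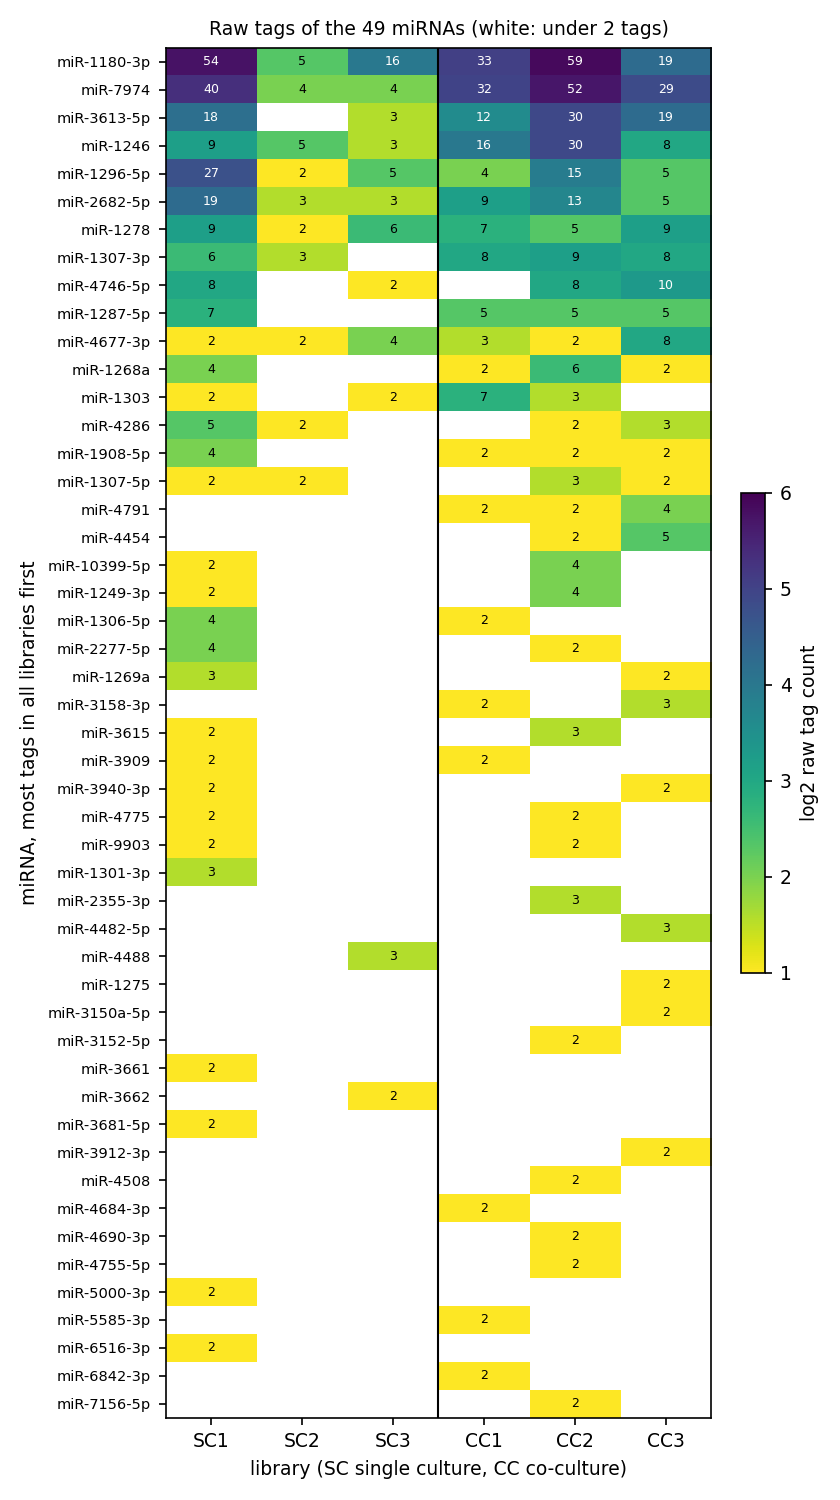
Raw tag count of each of the 49 miRNAs (vertical axis, most tags first) in the 3 single culture (SC) and 3 co-culture (CC) libraries (horizontal axis), with the colour giving log2 of the count and white meaning fewer than 2 tags. Counts above 9 are confined to the first 9 miRNAs, and most of the rest are listed in only 1 or a few libraries.

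Most of these miRNAs were listed in few libraries. Only 7 were listed in all 6 libraries, 22 in 2 to 5 and 20 in 1. The share listed in 1 library was 40.8%, against 16.2% of other known miRNAs and 24.6% of author-named sequences. A minimum of 10 tags in 3 libraries was met by 3 of the 49 (6.12%), against 47.6% of other known miRNAs and 32.2% of author-named sequences.

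**Figure D2:**
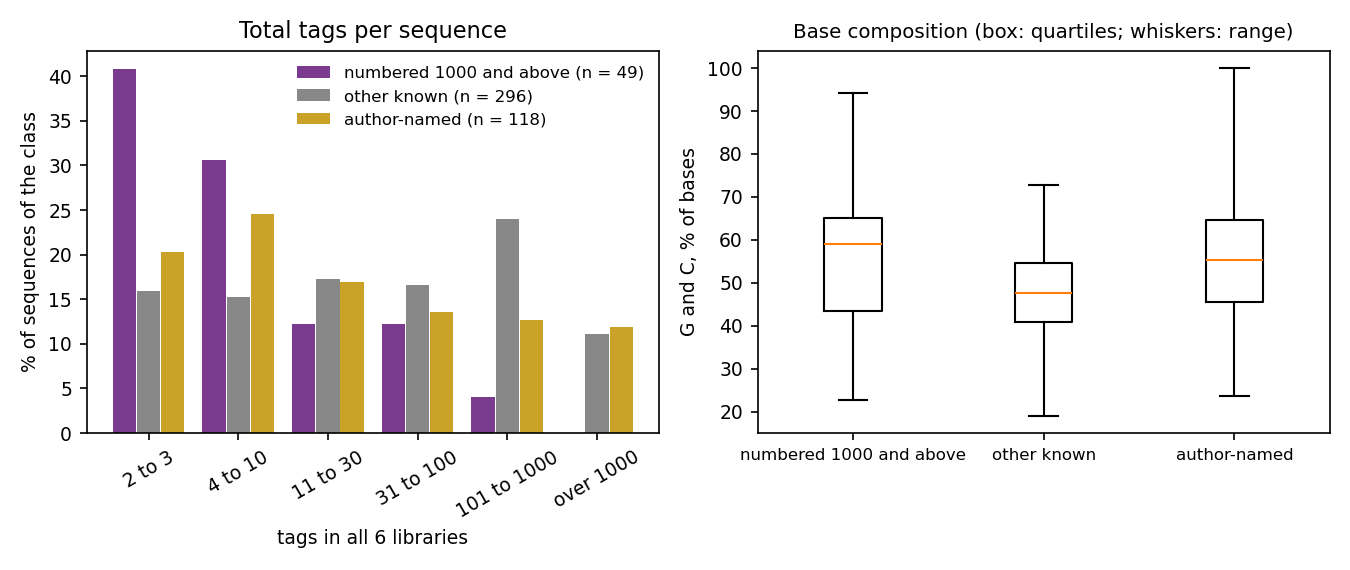
Left, share of the sequences of each class (vertical axis, percent) by total tags in all 6 libraries (horizontal axis), and right, share of G and C bases by class, with boxes from the lower to the upper quartile and whiskers over the whole range. The high-numbered miRNAs fill the 2 lowest tag classes with 40.8% and 30.6% of their number, and their median share of G and C is 59.1% against 47.6% for other known miRNAs.

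The sequences themselves also differed from those of other known miRNAs. Their median length was 22 nt, the same as for the others, but 8 of the 49 (16.3%) were 17 to 20 nt long, against 0 of 296 other known miRNAs and 68.6% of author-named sequences. The median share of G and C bases was 59.1%, with a range of 22.7% to 94.1%, against a median of 47.6% for other known miRNAs and 55.3% for author-named sequences. The lowest value belonged to miR-3613-5p, with its long run of U, and the highest to miR-4508. A share of 70% or more was found in 10 of the 49, in 2 of the 296 others and in 21 of the 118 author-named sequences. U was the first base in 44.9% of both sets, and in 26.3% of author-named sequences. These are descriptions of the listed sequences and were not tested.

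Few of the high-numbered miRNAs belonged to a seed family that was present in these cells. The 49 had 49 distinct seeds, and 1 of them (2.04%) shared its seed with another known miRNA of the table, whereas 90 of the 296 other known miRNAs (30.4%) shared a seed among themselves. The 1 was miR-2682-5p, whose seed AGGCAGU is also that of miR-449c-5p, a relative of the miR-34 miRNAs. miR-449c-5p had 2 tags, all in co-culture library 1. Among all RefSeq mature sequences, 16 of the 49 shared a seed with another miRNA.

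Of the 43 with a RefSeq locus, 30 lay inside a gene on the same strand (GENCODE release 29), 11 of them in an exon. A further 4 lay only opposite a gene, and 9 in no gene. Several hosts are well-known genes, and positions are given on GRCh38.p14. miR-1180-3p lay in an intron of B9D1, which encodes a protein of the ciliary base, at chr17:19344513-19344534 on the minus strand. miR-3613-5p (chr13:49996465-49996486, minus strand) lay in an intron of DLEU2, the noncoding host gene of miR-15a and miR-16-1, and miR-7974 (chr19:11495544-11495567, minus strand) in an intron of ZNF653, a zinc finger gene. miR-2682-5p (chr1:98045307-98045329, minus strand) lay in an exon of MIR137HG, the host transcript of miR-137. Both miR-1307 arms lay in an exon of ATP5MD, a subunit gene of the mitochondrial ATP synthase. Lower in the list, miR-1306-5p lay in an exon of DGCR8, the RNA-binding partner of Drosha, and miR-1908-5p in an exon of FADS1, a fatty acid desaturase gene.

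With blanks as 0, the summed level of the 49 did not differ between the groups beyond the spread of the libraries. The tags of all 49 came to 252, 30 and 53 in single culture libraries 1 to 3 and to 154, 278 and 159 in co-culture libraries 1 to 3. On the TMM scale this was 829, 465 and 785 CPM in single culture, and 597, 740 and 564 CPM in co-culture. The ranges overlapped, with the lowest and the highest library both in single culture. The means were 693 ± 199 CPM (SD, n = 3) and 633 ± 93.8 CPM (SD, n = 3), a log2 ratio of -0.09 (two-sided exact permutation p = 0.8, where the smallest possible p is 0.1). With each blank counted as 1 tag the groups no longer overlapped, at 889, 1069 and 1333 CPM in single culture against 709, 791 and 652 CPM in co-culture, a log2 ratio of -0.60 (exact permutation p = 0.1). A blank counted as 1 tag stands for more CPM in the smaller libraries, 2 of which are in single culture.

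The direction of this sum also depended on what it was set against. As a share of all tags, the 49 took 0.121% (95% exact binomial interval 0.106 to 0.136), 0.0683% (0.0461 to 0.0974) and 0.112% (0.0835 to 0.146) in single culture. In co-culture the shares of all tags were 0.0474% (0.0402 to 0.0555), 0.0460% (0.0407 to 0.0517) and 0.0377% (0.0321 to 0.0440). All 3 co-culture libraries were below all 3 single culture libraries, a log2 ratio of -1.16 for library size alone (exact permutation p = 0.1, the smallest possible), while miR-21-5p took a larger share of all tags in co-culture. Among tags other than miR-21-5p the shares were 0.276%, 0.113% and 0.177% in single culture against 0.190%, 0.244% and 0.2% in co-culture. These overlapped, and the log2 ratio turned to 0.25 (exact permutation p = 0.7). The intervals cover counting error only, since PCR copies were not told apart.

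The number of high-numbered miRNAs listed per library also depended on the denominator. As deposited it was 31, 10 and 12 in single culture against 20, 30 and 24 in co-culture, or 17.7 ± 11.6 and 24.7 ± 5.03 (SD, n = 3 each, exact permutation p = 0.4). Thinned to the 43956 tags of the smallest library, the expected numbers were 9.29, 10 and 11.5 in single culture against 4.62, 4.27 and 3.73 in co-culture. The groups then did not overlap, with a difference of -6.06 miRNAs (exact permutation p = 0.1, the smallest possible). At this depth the other classes did not overlap either, with 158 ± 4.68 other known miRNAs in single culture against 123 ± 5.34 in co-culture and 54.9 ± 9.64 author-named sequences against 32.7 ± 3.48 (SD, n = 3 each). Thinned to 26470 tags other than miR-21-5p, they were 11.8, 10 and 11.2 against 9.14, 9.77 and 11.4, which overlapped with a difference of -0.915 (exact permutation p = 0.3).

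**Figure D3:**
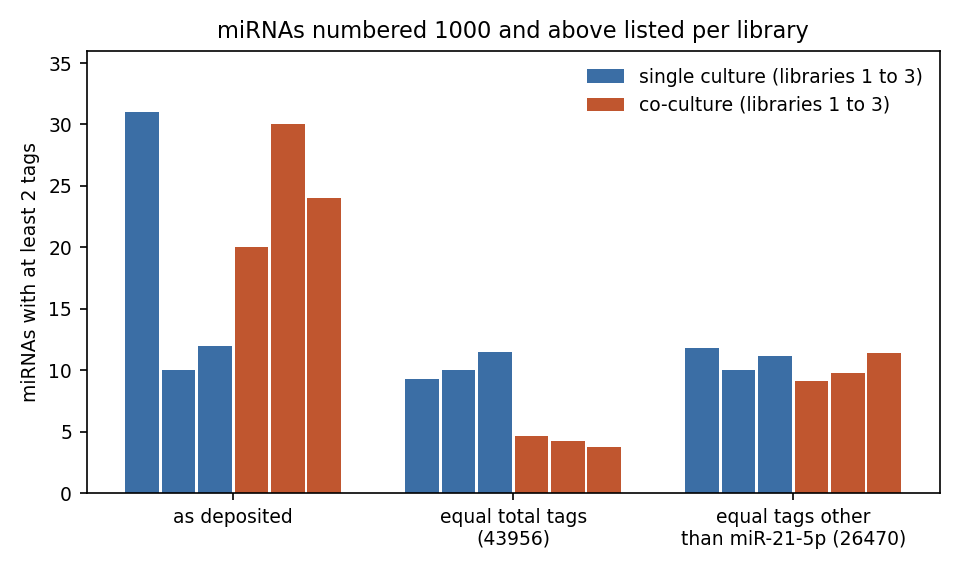
Number of the 49 miRNAs with at least 2 tags (vertical axis) in each library, as deposited, at equal total tags and at equal tags other than miR-21-5p, with 1 bar for each library. The co-culture bars are higher than 2 of the 3 single culture bars as deposited, all lower at equal total tags, and overlap with single culture once miR-21-5p is left out.

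None of the 3 high-numbered miRNAs that met the minimum count was called between the groups in edgeR. Over all 182 sequences tested, 8 were called at an adjusted p under 0.05 (4.4%), and of the 3, 0 were called and 0 had an unadjusted p under 0.05. DESeq2 gave an adjusted p to 150 of the 182 and called 22 (12.1% of the 182). It called neither miR-1180-3p nor miR-7974 and gave miR-3613-5p no adjusted p. Log2 fold changes are edgeR's fitted values, not ratios of the CPM means beside them. Their median log2 fold change was 0.28, against -0.04 over all 182. None of the 3 had groups that did not overlap, where 35.7% of all tested sequences did.

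miR-1180-3p, the most abundant of the 49, had 54, 5 and 16 tags in single culture libraries 1 to 3 and 33, 59 and 19 in co-culture. These counts stood for 178, 77.5 and 237 CPM in single culture and for 128, 157 and 67.4 CPM in co-culture. The highest level was in single culture library 3 and the lowest in co-culture library 3, and the groups overlapped. The means were 164 ± 80.6 and 117 ± 45.8 CPM (SD, n = 3 each), with -0.50 as the fitted log2 fold change (standard error, SE, 0.42, adjusted p = 0.489 in edgeR). Scaled by library size only, it stood at -1.57 (adjusted p = 0.0102 in edgeR), a setting in which 1 of the 3 and 76.9% of all 182 sequences were called and the median over all of them stood at -1.11.

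miR-7974 had 40, 4 and 4 tags in single culture against 32, 52 and 29 in co-culture. On the CPM scale these were 132, 62.0 and 59.2 in single culture against 124, 138 and 103 in co-culture. Single culture library 1 lay among the co-culture libraries, and the 2 smaller libraries lay below them. The means were 84.3 ± 41.0 and 122 ± 17.9 CPM (SD, n = 3 each), with 0.28 as the fitted log2 fold change (SE 0.40, adjusted p = 0.731 in edgeR). Without single culture library 1 it was 0.99 (adjusted p = 0.124 in edgeR), and with library 1 as the only single culture library it was -0.10.

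miR-3613-5p had 18 tags, a blank and 3 tags in single culture and 12, 30 and 19 tags in co-culture. With the blank as 0 these stood for 59.2, 0 and 44.4 CPM against 46.5, 79.9 and 67.4 CPM. Single culture library 1 again fell between the co-culture libraries, and library 3 just below them. At the pooled level of the 4 deeper libraries, 4.18 tags would be expected in single culture library 2, where it was blank. The means were 34.6 ± 30.8 and 64.6 ± 16.9 CPM (SD, n = 3 each), with 0.53 as the fitted log2 fold change (SE 0.53, adjusted p = 0.565 in edgeR). Without single culture library 1 it was 1.50 (adjusted p = 0.249 in edgeR) and without library 2 it was 0.24 (adjusted p = 0.755).

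A lower minimum of 5 tags in 3 libraries let 7 more into the test. Of the resulting 10, edgeR called 0, against 5 of 218 sequences tested (2.29%). DESeq2 gave an adjusted p to 159 of the 218 and called 23 (10.6% of the 218). It called none of the 10, of which only 2 received an adjusted p. In edgeR an unadjusted p under 0.05 was reached by 1 of the 10, against 20.2% of all 218. The fitted log2 fold change was positive in 5 and negative in 5, with a median of -0.01, against -0.01 over all 218. Of the positive ones, miR-7974, miR-3613-5p, miR-1307-3p and miR-1287-5p reached 5 tags in every co-culture library but in single culture only in library 1. The same was true of miR-2682-5p, which was negative. These signs therefore depend in part on which miRNAs the minimum let in. The groups did not overlap in 1 of the 10, against 31.7% of all 218. Scaled by library size only, 4 of the 10 and 69.3% of all 218 were called.

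**Figure D4:**
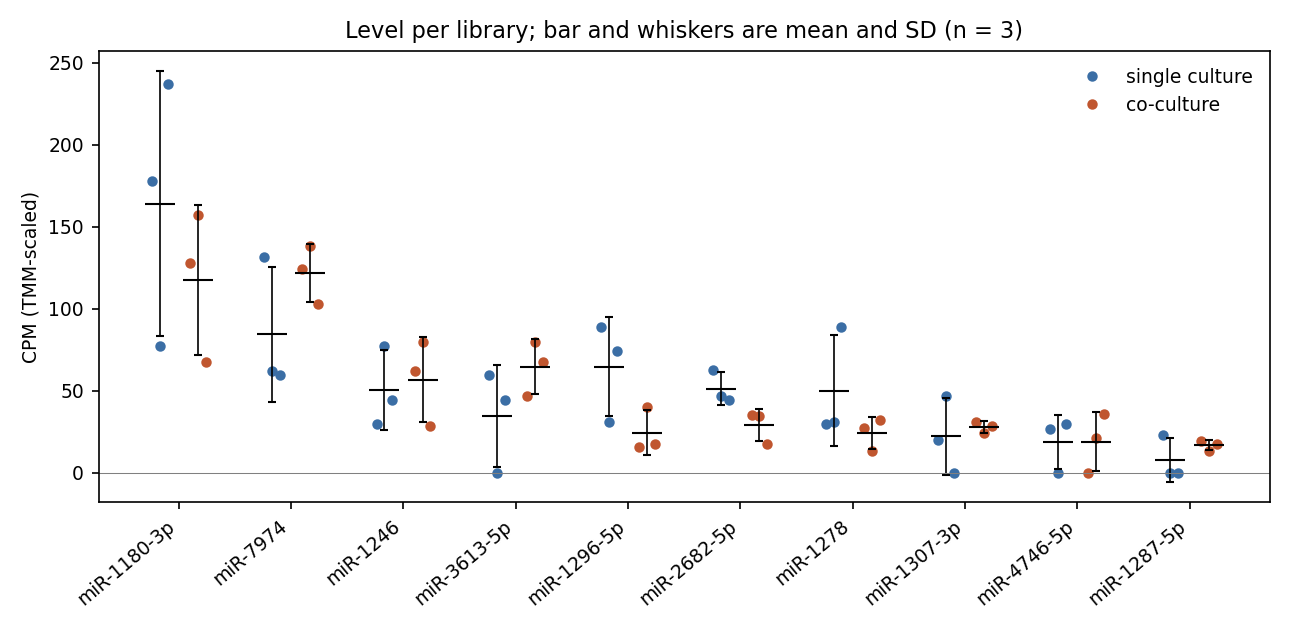
Level of the 10 miRNAs with at least 5 tags in 3 libraries (vertical axis, TMM-scaled CPM) in single culture (blue) and co-culture (orange), with 1 point for each library, a bar for the mean and whiskers for the SD (n = 3), and a blank drawn at 0. In 9 of the 10 the points of the groups overlap, and miR-2682-5p is the exception, with 44.4 to 62.5 CPM in single culture and 17.7 to 34.9 CPM in co-culture.

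The unadjusted p under 0.05 belonged to miR-1296-5p, a conserved miRNA. It had 27, 2 and 5 tags in single culture against 4, 15 and 5 in co-culture, which stood for 88.9, 31 and 74.1 CPM against 15.5, 39.9 and 17.7 CPM. Single culture library 2, with 2 tags, lay below co-culture library 2, and the other single culture libraries were above all of co-culture. The means were 64.6 ± 30.1 and 24.4 ± 13.5 CPM (SD, n = 3 each), with -1.47 as the fitted log2 fold change (SE 0.51, adjusted p = 0.134 in edgeR). With no minimum count, when 37 of 463 sequences were called (7.99%), edgeR called it at -1.44 (adjusted p = 0.0474). DESeq2 then gave an adjusted p to 203 of the 463 and called 25 (5.4% of the 463). Of the high-numbered miRNAs, 7 received an adjusted p in DESeq2 and 0 were called. Without single culture library 1 the log2 fold change of miR-1296-5p was -0.95 (adjusted p = 0.417 in edgeR, with the minimum of 5), and without co-culture library 2 it was -2.08 (adjusted p = 0.169).

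miR-2682-5p, hosted with miR-137, was the 1 without overlap. It had 19, 3 and 3 tags in single culture against 9, 13 and 5 in co-culture. The levels were 62.5, 46.5 and 44.4 CPM in single culture against 34.9, 34.6 and 17.7 CPM in co-culture, so every co-culture library was below every single culture library. This rested on few tags. In single culture libraries 2 and 3, with 3 tags each, 2 tags would stand for 31 and 29.6 CPM, below co-culture libraries 1 and 2. The means were 51.2 ± 9.91 and 29.1 ± 9.82 CPM (SD, n = 3 each), with -0.88 as the fitted log2 fold change (SE 0.40, adjusted p = 0.259 in edgeR). Groups that did not overlap, with co-culture lower, were found in 14.7% of the 218 sequences.

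miR-1278, from an intron of CDC73, the gene of parafibromin, a subunit of the PAF transcription elongation complex, had 9, 2 and 6 tags in single culture against 7, 5 and 9 in co-culture. The means were 49.8 ± 33.8 and 24.1 ± 9.66 CPM (SD, n = 3 each), with -0.81 as the fitted log2 fold change (SE 0.60, adjusted p = 0.484 in edgeR). Single culture library 3 was high at 88.9 CPM, and the other libraries of both groups overlapped.

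The sequence of miR-1246 is not unique to its hairpin. Its 19 nt matched exactly inside U2 small nuclear RNA, a core part of the spliceosome, in 8 annotated U2 gene names that include RNU2-1, so its tags cannot be assigned to the hairpin at chr2:176601024-176601042 alone. It had 9, 5 and 3 tags in single culture against 16, 30 and 8 in co-culture, or 29.6, 77.5 and 44.4 CPM against 62.0, 79.9 and 28.4 CPM. The groups overlapped throughout, with means of 50.5 ± 24.5 and 56.7 ± 26.2 CPM (SD, n = 3 each), with 0.48 as the fitted log2 fold change (SE 0.53, adjusted p = 0.612 in edgeR). The 6 listed miRNAs that have been reported as pieces of other structured RNA (miR-1246, miR-1268a, miR-4286, miR-4454, miR-4488 and miR-4508) had 18, 7 and 6 tags in single culture against 18, 42 and 18 in co-culture. Together they were at 85.5 ± 24.8 CPM in single culture against 81.8 ± 26.2 CPM in co-culture (SD, n = 3 each), a log2 ratio of -0.07 (exact permutation p = 1). Sequences of 17 to 20 nt as a whole took a larger share of the tags in single culture libraries 2 and 3, and the 8 short miRNAs of this group had 18, 7 and 6 tags in single culture against 20, 44 and 24 in co-culture. The part of the short sequences in these values was not tested.

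The 13 listed miRNAs of the list of conserved hairpins or known host genes held 476 of the 926 tags (51.4%), 148, 15 and 27 in single culture against 75, 146 and 65 in co-culture. They were at 373 ± 129 CPM in single culture against 303 ± 79.9 CPM in co-culture (SD, n = 3 each), a log2 ratio of -0.27 (exact permutation p = 0.4). Of the mirtrons, hairpins cut out by splicing instead of Drosha, or intron-tailed hairpins, miR-3940-3p had 2 tags in single culture library 1 and 2 in co-culture library 3, and miR-6842-3p had 2 in co-culture library 1. None of the high-numbered miRNAs that lie opposite an older miRNA gene was listed, among 8 looked for.

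The 2 remaining miRNAs of the 10, apart from miR-1307-3p, were blank in some libraries. miR-4746-5p, which lies opposite an exon of UBXN6, had 8 tags, a blank and 2 tags in single culture and a blank, 8 and 10 tags in co-culture, with -0.16 as the fitted log2 fold change (SE 0.99, adjusted p = 0.951 in edgeR). miR-1287-5p, in an exon of PYROXD2, had 7 tags in single culture library 1 only and 5 tags in each co-culture library, with 0.15 as the fitted log2 fold change (SE 0.81, adjusted p = 0.95 in edgeR). Blanks in libraries 2 and 3 carry little information here, since 1.16 and 1.22 tags of miR-1287-5p would be expected in them at the pooled level of the 4 deeper libraries.

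The sign for miR-1307-3p depended on which of its forms was counted. It had 6 tags, 3 tags and a blank in single culture and 8, 9 and 8 tags in co-culture, or 19.7, 46.5 and 0 CPM against 31, 24.0 and 28.4 CPM. The log2 fold change was 0.42 (SE 0.63, adjusted p = 0.740 in edgeR). An author-named sequence, chr10_774, is the same miRNA with 1 more base at its 3′ end, a templated G shown in capitals (chr10:103394300-103394322, minus strand, GRCh38.p14).
chr10_774: acucggcguggcgucggucgugG
This longer form had more tags than the annotated one in every library, 44, 7 and 9 in single culture against 26, 42 and 24 in co-culture, at 129 ± 18.6 and 99.2 ± 13.4 CPM (SD, n = 3 each). In the same fit, with the minimum of 5, its log2 fold change was -0.39 (SE 0.22, adjusted p = 0.356 in edgeR), and both forms added together had -0.25 (SE 0.19, adjusted p = 0.492 in edgeR). The annotated form alone and both forms together thus had opposite signs, and neither passed. The annotated form took 14 ± 15.1% of the tags of both forms in single culture against 22.1 ± 3.89% in co-culture (SD, n = 3 each, exact permutation p = 0.5). The other arm, miR-1307-5p, had 2 tags, 2 tags and a blank in single culture and a blank, 3 tags and 2 tags in co-culture.

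The author-named form of miR-1296-5p is shorter. chr10_458 consists of its first 19 nt, 3 fewer than the annotated 22, and had 12, 2 and 3 tags in single culture against 11, 18 and 12 in co-culture. With the minimum of 5, its log2 fold change was 0.22 (SE 0.40, adjusted p = 0.797 in edgeR), opposite in sign to that of the annotated form. The annotated form made up 27 of 39 tags (69.2%, exact 95% interval 52.4 to 83.0), 2 of 4 (50%, 6.76 to 93.2) and 5 of 8 (62.5%, 24.5 to 91.5) in single culture libraries 1 to 3. In co-culture it made up 4 of 15 (26.7%, 7.79 to 55.1), 15 of 33 (45.5%, 28.1 to 63.6) and 5 of 17 (29.4%, 10.3 to 56.0). The shares did not overlap between the groups, at 60.6 ± 9.76% and 33.8 ± 10.1% (SD, n = 3 each), and the exact permutation p was 0.1, the smallest that 3 against 3 can give. Both forms added together had a log2 fold change of -0.64 (SE 0.33, adjusted p = 0.309 in edgeR). These forms were compared after their counts had been seen. The third such pair, miR-3940-3p and chr19_8828, which has 1 base fewer, had 2 tags each in 2 libraries.

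**Figure D5:**
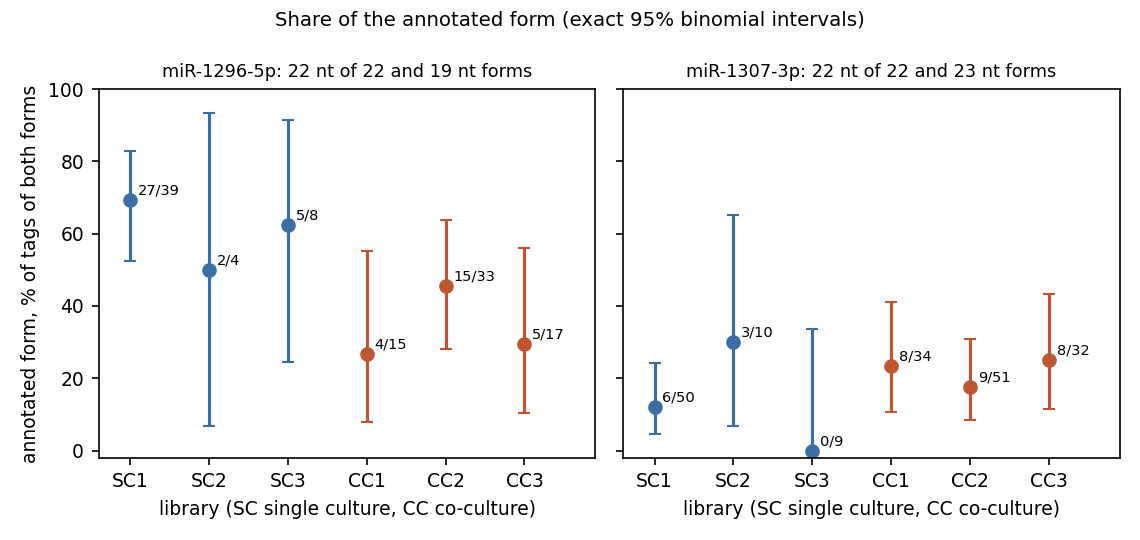
Share of the annotated form among the tags of both forms (vertical axis, percent) of miR-1296-5p (left) and miR-1307-3p (right) in each library, with exact 95% binomial intervals and the tag counts beside each point. For miR-1296-5p the single culture points lie at 50% to 69.2% and the co-culture points at 26.7% to 45.5% with wide intervals, and for miR-1307-3p the points of the groups overlap.

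The other 39 miRNAs were too rare for a test. The highest among them was miR-4677-3p, listed in all 6 libraries with 2, 2 and 4 tags in single culture against 3, 2 and 8 in co-culture. miR-1268a had 4 tags in single culture library 1 and 2, 6 and 2 tags in co-culture, and miR-1908-5p had 4 in single culture library 1 and 2 in each co-culture library. miR-1303 had 2 tags, a blank and 2 tags in single culture and 7 tags, 3 tags and a blank in co-culture, and miR-4286 had 5 tags, 2 tags and a blank against a blank, 2 tags and 3 tags.

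Listing in only 1 group turned on a few tags. Both groups listed 26 of the 49, co-culture alone 16 and single culture alone 7. The same split is not given for the other classes, so 16 against 7 cannot be read as particular to these miRNAs. As deposited, the mean number listed per library was also higher in co-culture for other known miRNAs, at 238 against 188 in single culture. For author-named sequences it was 76.3 against 66.3. Of the 16, 3 were listed in at least 2 co-culture libraries and 1, miR-4791, in all 3, with 2, 2 and 4 tags. Taking its pooled level in co-culture, 8.74 CPM, 2.65 tags would be expected in single culture library 1 and 0.564 and 0.590 in libraries 2 and 3, or 3.81 in all. Each of the 3 was blank, which means at most 1 tag in each. miR-4454, with 2 and 5 tags in co-culture libraries 2 and 3, would give 2.32 tags in single culture library 1, and miR-3158-3p, with 2 and 3 tags in co-culture libraries 1 and 3, would give 1.66. The 7 listed in single culture alone had at most 3 tags, each in 1 library. They were miR-1301-3p from an intron of the DNA methyltransferase gene DNMT3A, miR-3661, miR-3681-5p, miR-5000-3p and miR-6516-3p in library 1, and miR-3662 and miR-4488 in library 3. At their pooled single culture level, miR-1301-3p and miR-4488 would give 1.78, 2.59 and 1.94 tags in co-culture libraries 1 to 3, or 6.30 in all, and the other 5 would give 1.18, 1.72 and 1.29 tags each, and all were blank there. The co-culture libraries were the deeper ones. All these expected tags use the level in the group for which each miRNA was picked, so they cannot test absence from the other group. miR-6516-3p also matched the small Cajal body RNA SCARNA16. In single culture library 2, 39 of the 49 would be expected at less than 1 tag at the pooled level of the 4 deeper libraries, of which 3 (miR-4677-3p, miR-4286 and miR-1307-5p) had 2 tags there. Absence of the other 36 was not detectable at this depth.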

How the data were processed

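Small RNA of LX-2 cells was sequenced in 3 single culture and 3 co-culture libraries. Used here were the raw tag counts as deposited by the authors, 1 row for each name and hairpin. They also deposited normalized tag counts, a signal scaled by the authors in a way the sources used here do not state, and these served only to match columns to groups. Bowtie 0.12.2 and the builds hg18 and mm8 are named, without their roles, by the submitters' processing notes. The authors' table of fold changes, p-values and FDR was not used. Column names are numbers that fit no sample title, so columns were placed in groups, not samples. The authors' group values equal the means over these columns plus 1 in 520 of 520 rows (within 1e-05), against 14 for the other group. In all, 0 columns were without a group.

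The 520 rows were merged by mature sequence into 463. edgeR 4.0.16 (R 4.3.3) was fitted to all sequences with TMM scaling, at least 10 counts in 3 libraries and Benjamini-Hochberg adjustment, and checked on simulated data. Standard errors (SE) were obtained by dividing a log2 fold change by the t quantile that its p corresponds to. DESeq2 1.42.0, other scalings, other minimum counts, blanks as 1 tag, known miRNAs only, a replicate block and leaving out libraries were alternatives. The miRNAs, lists and tests were chosen with earlier results of these data known. Named are the miRNAs meeting the minimum, the 10 of most tags below it, those listed in at least 2 libraries of 1 group only, those sharing a seed, and up to 6 of each role list. Numbers listed at equal depth are expectations of hypergeometric thinning. The single-library miRNAs of the single culture group, miR-1306-5p, miR-1307-5p, miR-1908-5p and the author-named forms were named after their values were seen. Same-numbered libraries did not deviate together (correlations -0.40, -0.15 and -0.24), and the main fits used no pairing by number. With 3 libraries in each group, these correlations cannot exclude a pairing. No libraries of a group were duplicates (chi-square per degree of freedom 3.46 to 144).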

Additional observations from a re-analysis of the deposited data

How the results depend on the processing

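The scaling changed the count of called miRNAs and the direction of 5 of the 10 tested with the minimum of 5 counts. Under library size alone, all tested sequences had a median of -1.11 (log2), 140 of 182 were called (76.9%), 1 of the 3 tested miRNAs among them, and their median was -0.77. miR-7974 turned to -0.77 and miR-3613-5p to -0.54. With the minimum of 5 counts, library size alone called 4 of 10 (miR-1180-3p, miR-1278, miR-1296-5p and miR-2682-5p) and 151 of all 218 (69.3%), with a median of -1.09, and turned miR-1246 to -0.64, miR-1307-3p to -0.67 and miR-1287-5p to -0.91. With no minimum count edgeR called 1 of 49, against 37 of all 463 sequences (7.99%). Without the 2 smaller single culture libraries miR-7974 turned to -0.10 and miR-1287-5p to -0.48. miR-1287-5p also turned to -0.28 with blanks as 1 tag, and miR-1307-3p to -0.25 with both forms added. The summed level was -0.60 with blanks as 1 tag and turned to 0.25 as a share of tags other than miR-21-5p, and the difference in miRNAs listed to -6.06 at equal total tags and -0.915 at equal tags other than miR-21-5p. Leaving out 1 library at a time gave 0 called miRNAs. With the minimum of 10 counts, 43 of all 172 sequences were called without single culture library 1. Without co-culture libraries 2 or 3 in turn, 0 of 170 and 0 of 172 were. The median was 0.11 to 0.99 (0.99 without single culture library 1). The summed log2 ratio was -0.36 to 0.058 (0.058 without single culture library 1 and 0.019 without library 3). The difference in miRNAs listed was 3.17 to 13.7. Fold changes (log2) ran from 0.24 to 1.50 for miR-3613-5p and from -2.08 to -0.95 for miR-1296-5p. For miR-1287-5p they ran from -0.14 to 4.84 (-0.12 without single culture library 2). The 4.84 was without single culture library 1, when this miRNA was blank in the other single culture libraries. miR-4746-5p ran from -0.46 to 0.34 over the 3 of these fits in which it met the minimum. The cause of these shifts was not tested. A replicate block called 0 of the 3 and 0 of the 182, and 0 of the 10 with the minimum of 5 counts. A minimum of 50 counts left none of the 49 and gave no value. The 926 tags of the 49 limit all of these values. The minimum of 5 counts combined with another choice and the addition of forms were alternatives chosen after seeing the data.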
